A study of Macaca mulatta with 12 samples.

Results

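Genes of the lysosome, the acidic organelle in which cells digest proteins, lipids and sugars, were followed in RNA from rhesus macaque blood macrophages. A fixed list of 50 genes was used, and 47 of them were found by name among the 32386 rows of the deposited count table. LIPA, MAN2B1 and ATP6V0C were not analysed here. The 47 genes were 3 MiT transcription factors, 9 cathepsins, 13 other hydrolases and lumenal proteins, 7 membrane proteins and 15 subunits or accessory proteins of the V-ATPase.

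The macaques (Macaca mulatta) had been given back their own mobilized CD34+ cells after CRISPR/Cas9 treatment, as a primate model of clonal hematopoiesis with TET2 mutation, so cells of every group came from such transplanted animals. CD14+CD16-CD163+ cells were sorted from peripheral blood and plated at 250000 cells per well for 8 h. The 4 groups of 3 libraries each were Late CTL (19 months after transplant, no stimulus), Early CTL (4.5 months, no stimulus), Late ACT (19 months) and Early ACT (4.5 months), and both ACT groups received lipopolysaccharide (LPS) at 100 ng/ml with interferon-gamma at 20 ng/ml. The labels do not give the share of edited cells, the age of the animals or whether replicates were separate animals or separate wells, so a p-value here covers the spread among a few libraries of possibly technical origin. No untransplanted or unedited group was analysed here, and time after transplant cannot be told apart from any batch that went with it.

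TFEB, TFE3 and MITF are transcription factors of the MiT family, which bind promoters of lysosomal genes and are held in the cytoplasm when the kinase complex mTORC1 is active on the lysosome surface. The enzymes they help to control are made as precursors, reach the lysosome by sorting receptors and work at low pH. The V-ATPase makes that pH by pumping protons with a membrane sector, V0, turned by an ATP-hydrolysing sector, V1. Macrophages carry many lysosomes, in which engulfed microbes and dead cells are broken down and antigens are cut for presentation.

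Library totals ran from 3910680 to 12972505 counts, and levels are given as CPM, counts scaled to a common library size, after TMM scaling, a correction for differences in RNA composition. A gene is said to be called, or to have risen or fallen, where its adjusted p was under 0.05 in the edgeR quasi-likelihood test over all 11826 genes tested, and log2 fold changes carry their standard error (SE). All 47 members passed the filter on low counts. CD14 and CD163, used in the sort, were present in all 12 libraries, and the tissue macrophage genes MRC1 and MARCO were low, with a highest group mean of 3.28 and 1.17 CPM. The summed level of 12 monocyte and macrophage markers ranged from 6599 to 7128 CPM in Late CTL and from 11744 to 12372 CPM in Early CTL libraries, and from 6165 to 6404 CPM in Late ACT and from 11160 to 11467 CPM in Early ACT libraries. This sum was thus lower in every late library. Among its genes CSF1R, S100A8 and S100A9 averaged 90.6, 100.6 and 110.9 CPM in Late CTL against 289.2, 479.9 and 643.3 CPM in Early CTL. MSR1 (27.5 to 39.5 CPM in Late CTL against 22.0 to 25.8 CPM in Early CTL) and MRC1 were instead higher in every Late CTL library. FCGR1A and MARCO overlapped. The sum of 5 neutrophil markers was also lower late (271.8 to 341 CPM in Late CTL against 515.7 to 559.6 CPM in Early CTL), nearly all of it CSF3R, which monocytes also express. Dendritic cell markers summed to 171.6 to 198.2 CPM in Late CTL against 235.7 to 274.5 CPM in Early CTL, and to 182.3 to 189.4 CPM in Late ACT against 242.6 to 342.5 CPM in Early ACT. Platelet markers summed to 329.7 to 395.4 CPM in Late CTL against 431.9 to 483.6 CPM in Early CTL, and to 332.7 to 345.4 CPM in Late ACT against 424.2 to 575.5 CPM in Early ACT. Nearly all of that was TUBB1, while PPBP, a defining platelet gene, reached at most 2.63 CPM. Red cell markers were likewise lower late in both conditions, at 10.1 to 18.6 CPM in Late CTL against 21.5 to 26.7 CPM in Early CTL. T cell markers summed to at most 8.9 CPM, with a highest CD3E level of 0.65 CPM, and B cell markers to at most 6.79 CPM. The part of these markers in the results was not tested. Early ACT 1 differed from the rest of its group: chi-square per degree of freedom over genes was 25.6 and 26.4 against the other Early ACT libraries, which gave 2.77 between themselves, and 2.66 to 9.24 in the other groups.

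More lysosomal genes fell than rose late in both culture conditions. In unstimulated cells 19 of 47 members fell and 4 rose late, which is 40.4% and 8.51% of the members, where 19.8% of all genes tested were called lower and 20.9% higher. In stimulated cells 27 fell and 5 rose (57.4% and 10.6%), against 19.7% of all genes lower and 19.1% higher. These counts include 4 members named from the authors' tables of called genes alone, which entered because they differed. Of the other 43 members 17 fell and 3 rose in unstimulated cells (39.5% and 6.98%). In stimulated cells 24 of the 43 fell and 4 rose (55.8% and 9.3%). The median log2 fold change of the members was -0.24 in unstimulated and -0.40 in stimulated cells, where the median of all genes was 0.02 and 0.05. In bulk RNA, fewer cells with active lysosomes and less lysosomal RNA per cell cannot be told apart.

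More abundant genes were called lower more often across the table. Among genes with a mean of at least 10 CPM, 28.6% were lower and 18.1% higher in unstimulated cells, and 31% lower and 15.4% higher in stimulated cells. Of the 43 members at that level, 18 were lower and 4 higher in unstimulated cells (41.9% and 9.3%) and 26 lower and 5 higher in stimulated cells (60.5% and 11.6%). The shares of each class below stand beside those of all genes tested, which were called lower less often than these abundant genes. The late and early libraries did not overlap for 34 of the 47 members in unstimulated and 35 in stimulated cells, against 52.8% and 50.4% of all genes. Summed over the 47 members, the level was 18611 ± 449 CPM in Late CTL and 22810 ± 418 CPM in Early CTL, and 17450 ± 365 CPM in Late ACT and 22884 ± 1775 CPM in Early ACT (SD, n = 3 each). A few abundant genes weigh heavily in this sum. PSAP, CTSB and GRN averaged 5243, 2018 and 1166 CPM in Late CTL against 7277, 3321 and 1925 CPM in Early CTL. CTSL went the other way, at 1878 against 1388 CPM. The V-ATPase members also summed higher in Late CTL, at 3725 ± 195 against 3339 ± 99.6 CPM in Early CTL. Their sums in Late ACT and Early ACT were 3578 ± 63 and 3695 ± 181 CPM.

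**Figure D1:**
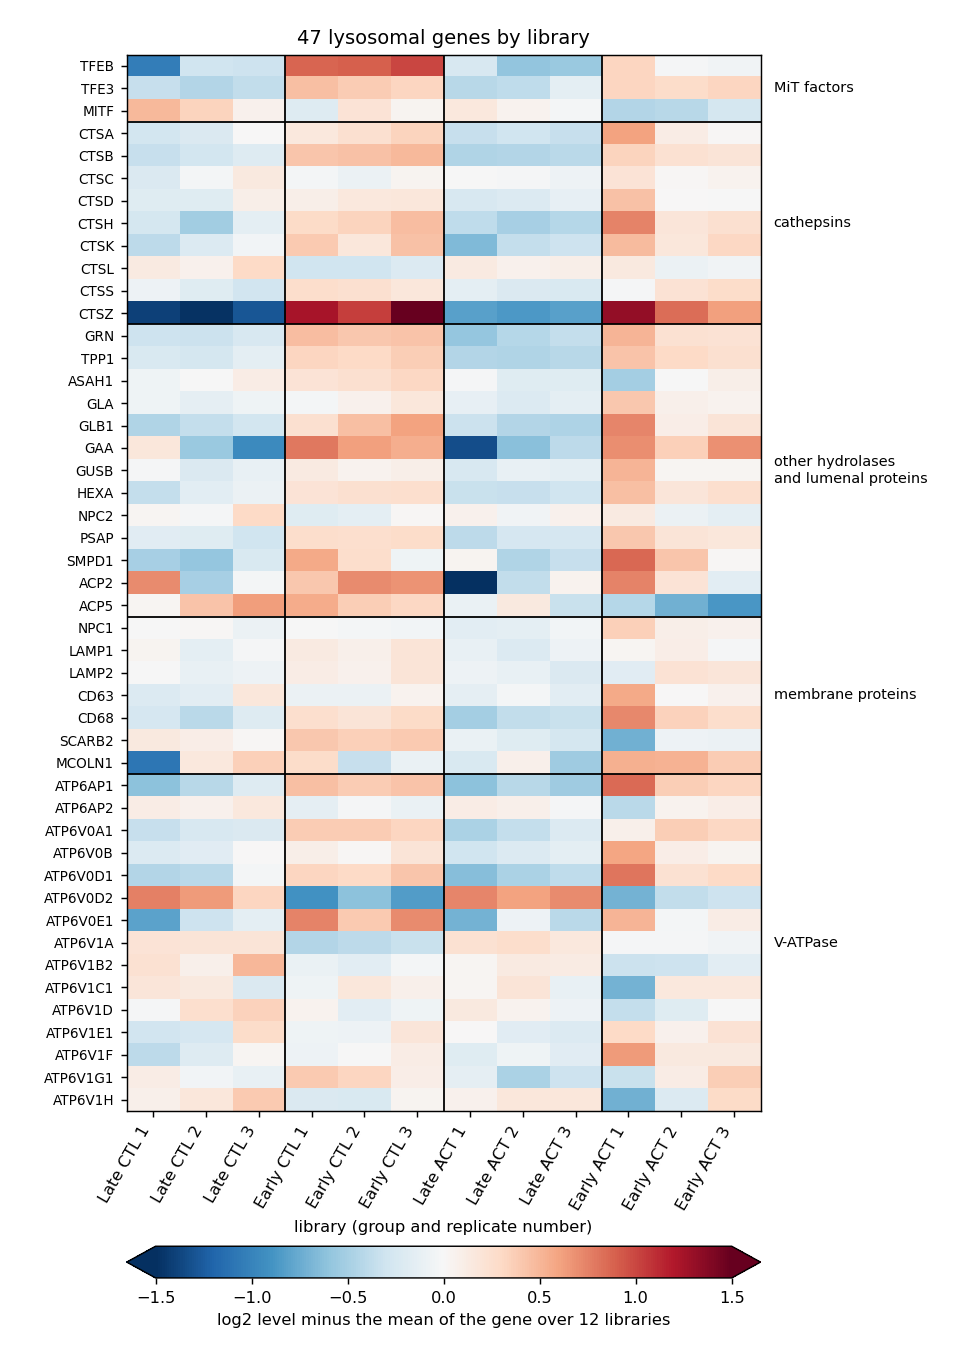
Log2 level of each of the 47 members (rows, by class) in each of the 12 libraries (columns), minus the mean of that gene over the 12 libraries; red is above and blue below that mean, with colours capped at 1.5. Most cathepsin and hydrolase rows are blue in the 6 late libraries and red in the 6 early ones, the ATP6V0D2 row shows the opposite, and library Early ACT 1 is the most extreme of its group in many rows.

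All 19 members lower in unstimulated cells were also lower in stimulated cells, 8 further members were lower in stimulated cells alone, and none was called in opposite directions. The 3 members higher in both were ATP6V0D2, ATP6V1A and ATP6V1B2. CTSL was called higher in unstimulated cells, MITF and ACP5 were called higher in stimulated cells, and 14 members were called in neither. None of the 47 passed the test of the difference between the conditions (the interaction, described last), so these splits are not shown to be differences.

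**Figure D2:**
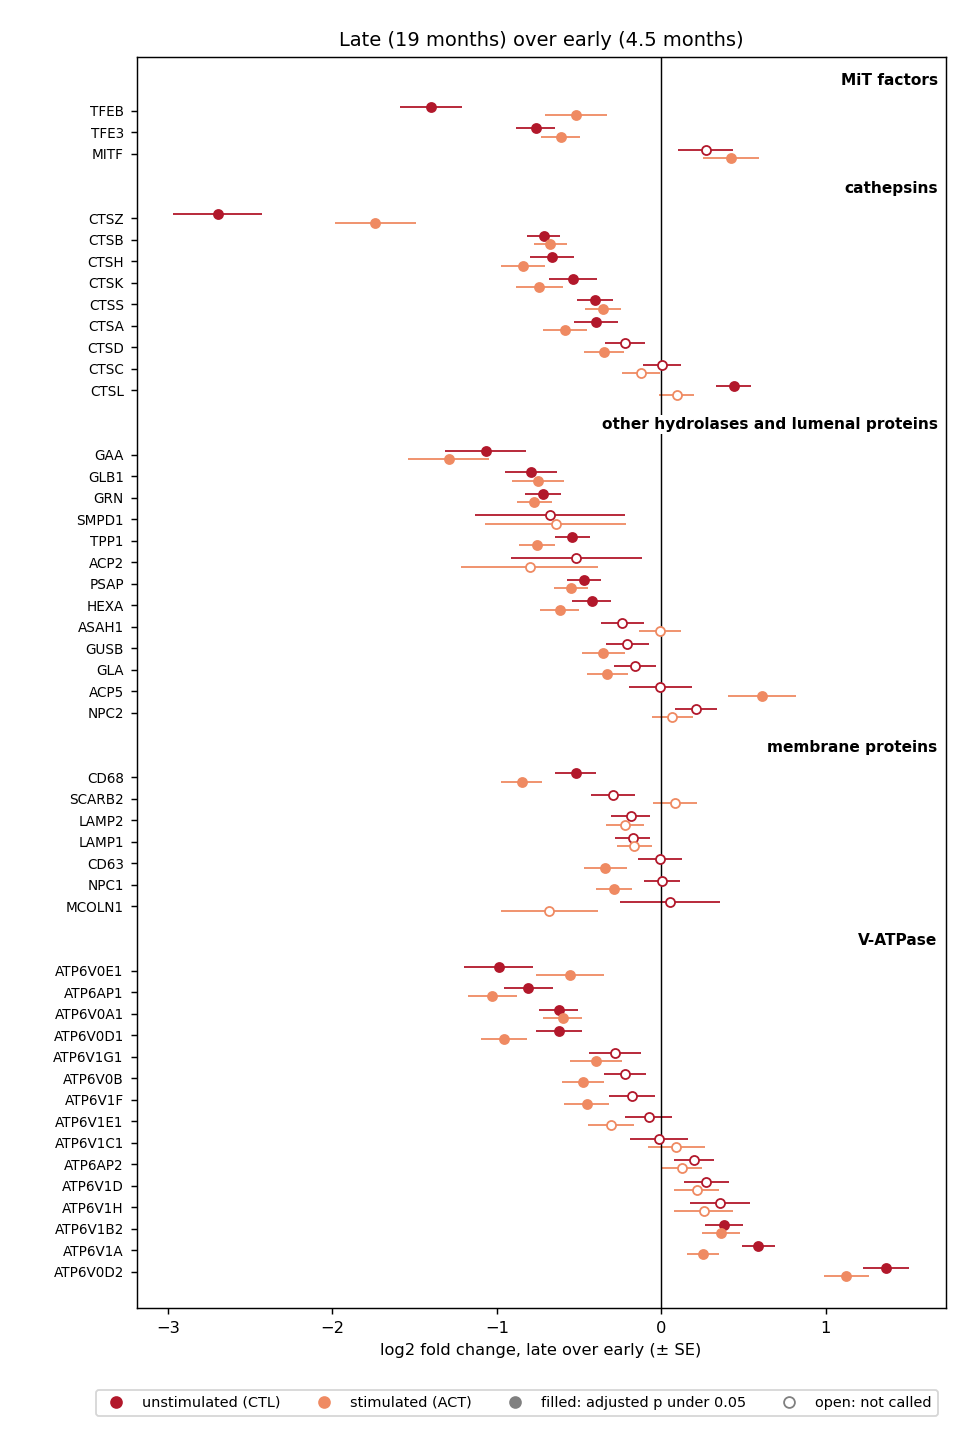
Log2 fold change of late over early libraries (± SE) for each member, in unstimulated (dark red) and stimulated (orange) cells, by class; filled points had an adjusted p under 0.05. Most points lie left of 0, CTSZ farthest at -2.70 and -1.74, while ATP6V0D2 lies farthest to the right at 1.37 and 1.12.

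The MiT factors did not move as 1 group. TFEB, the member of the family best known for driving lysosome biogenesis, measured 8.54, 14.3 and 14.2 CPM in Late CTL libraries and 32.1, 32.8 and 35.3 CPM in Early CTL libraries. In stimulated cells it measured 14.8, 11.7 and 12.0 CPM in Late ACT and 22.0, 17.3 and 16.9 CPM in Early ACT libraries. Every late library was below every early one in both conditions. TFEB fell late by 1.40 ± 0.19 on the log2 scale in unstimulated cells (2.64-fold, adjusted p = 2.62e-06) and by 0.52 ± 0.19 in stimulated cells (1.43-fold, adjusted p = 0.0328). The call in stimulated cells was lost in 5 alternatives, among them those without Early ACT 1 (-0.43, adjusted p = 0.0576), Late ACT 2 or Late ACT 3. The 2029 reads counted for TFEB over all libraries included 34, 108 and 94 in Late CTL.

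TFE3, which acts beside TFEB on the same kind of promoters, measured 60.8, 56.9 and 59.7 CPM in Late CTL and 105.1, 100.6 and 96.4 CPM in Early CTL libraries. Its levels were 57.8, 59.2 and 69.7 CPM in Late ACT and 96.5, 93.5 and 96.5 CPM in Early ACT libraries. The groups were well apart in both conditions, and the log2 fold change was -0.76 ± 0.12 in unstimulated (adjusted p = 1.97e-05) and -0.61 ± 0.12 in stimulated libraries (adjusted p = 0.000284). Both TFE3 calls held in all 18 alternatives tried.

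MITF, known for its roles in melanocytes, osteoclasts and mast cells, went the other way. It measured 29.6, 26.5 and 22.1 CPM in Late CTL and 18.4, 24.2 and 21.7 CPM in Early CTL libraries, which overlapped. In stimulated cells it measured 23.5, 21.8 and 20.6 CPM late and 15.6, 15.9 and 17.6 CPM early, with no overlap. The log2 fold change was 0.27 ± 0.17 without stimulus (adjusted p = 0.203) and 0.42 ± 0.17 in stimulated libraries (adjusted p = 0.0485), a call that was lost in 14 of 18 alternatives. The log2 ratio of TFEB to MITF counts, in which scaling cancels, averaged -1.11 ± 0.61 in Late CTL and 0.65 ± 0.19 in Early CTL, and -0.78 ± 0.12 in Late ACT and 0.19 ± 0.28 in Early ACT (SD, n = 3 each).

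Cathepsins, the proteases of the lysosome, fell in 6 of 9 members (66.7%) in unstimulated and 7 of 9 (77.8%) in stimulated cells, where 19.8% and 19.7% of all genes did. CTSK, which is among those that fell in both, was named from the authors' tables of called genes alone. It entered because it differed, and both counts are raised by that choice. CTSL was the 1 cathepsin that rose, in unstimulated cells. The median log2 fold change of the 9 cathepsins was -0.40 in unstimulated and -0.59 in stimulated cells. CTSZ, a carboxypeptidase found in monocytes and macrophages, measured 2.51, 2.38 and 2.72 CPM in Late CTL and 15.6, 13.7 and 20.3 CPM in Early CTL libraries. In stimulated cells it measured 3.77, 3.64 and 3.77 CPM late and 16.6, 11.9 and 10.1 CPM early. The levels were low, from 10, 18 and 18 reads in Late CTL and 107, 147 and 238 reads in Early CTL libraries, and the late and early groups were far apart. The fall was 6.49-fold in unstimulated (log2 -2.70 ± 0.27, adjusted p = 2.38e-08) and 3.34-fold in stimulated cells (-1.74 ± 0.25, adjusted p = 6.84e-06).

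CTSB, a cysteine protease, measured 1913, 2008 and 2133 CPM in Late CTL and 3235, 3308 and 3419 CPM in Early CTL libraries. Its levels were 1782, 1799 and 1842 CPM in Late ACT and 3068, 2845 and 2773 CPM in Early ACT libraries. Libraries of a group differed little from each other, and the fall was 1.64-fold in unstimulated (-0.71 ± 0.10, adjusted p = 4.08e-06) and 1.6-fold in stimulated cells (-0.68 ± 0.10, adjusted p = 1.11e-05). CTSH, an aminopeptidase, measured 286.0, 238.4 and 310.0 CPM in Late CTL and 418.8, 433.2 and 473.4 CPM in Early CTL libraries. In stimulated cells CTSH was at 263.2, 244.0 and 254.8 CPM late and 576.7, 389.7 and 405.1 CPM early, with Early ACT 1 above the other libraries. Its log2 fold change was -0.66 ± 0.14 in unstimulated (adjusted p = 0.000362) and -0.84 ± 0.14 in stimulated libraries (adjusted p = 3.2e-05).

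CTSK, the collagen-cutting protease best known from osteoclasts, measured 36.4, 41.6 and 46.4 CPM in Late CTL and 63.0, 53.7 and 65.1 CPM in Early CTL libraries, and 30.3, 37.4 and 38.6 CPM in Late ACT and 66.3, 54.0 and 59.1 CPM in Early ACT libraries. CTSA, a carboxypeptidase that also protects beta-galactosidase and neuraminidase from breakdown, measured 194.0, 202.5 and 236.9 CPM in Late CTL against 262.8, 278.4 and 296.1 CPM in Early CTL, and 185.5, 190.7 and 185.4 CPM in Late ACT against 357.1, 254.1 and 237.8 CPM in Early ACT. Neither gene's late and early libraries overlapped. Both fell in both conditions, as did CTSS, which cuts the invariant chain in MHC class II antigen presentation. The unstimulated CTSA call was lost in 4 alternatives. CTSD, the main aspartic protease, was called lower in stimulated cells alone, and CTSC, which activates granule serine proteases, was called in neither condition.

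CTSL, an endopeptidase of broad action, did the reverse in unstimulated cells. It measured 1841, 1741 and 2053 CPM in Late CTL and 1353, 1360 and 1452 CPM in Early CTL libraries, with no overlap, a rise of 1.36-fold (0.44 ± 0.11, adjusted p = 0.00179). In stimulated cells it measured 1833, 1752 and 1783 CPM late and 1857, 1573 and 1613 CPM early, which overlapped (0.09 ± 0.11, adjusted p = 0.501).

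Of the 13 other hydrolases and lumenal proteins 6 fell in unstimulated cells and 8 fell and 1 rose in stimulated cells, with medians of -0.47 and -0.62. That is 46.2% and 61.5% lower, where 19.8% and 19.7% of all genes were. GRN, progranulin, a secreted and lysosomal protein whose loss causes neuronal ceroid lipofuscinosis and frontotemporal dementia in humans, measured 1148, 1139 and 1212 CPM in Late CTL and 1966, 1892 and 1917 CPM in Early CTL libraries. It measured 953.2, 1064 and 1112 CPM in Late ACT and 2031, 1667 and 1661 CPM in Early ACT libraries. The groups were far apart, and the fall was 1.65-fold in unstimulated (-0.72 ± 0.11, adjusted p = 1.19e-05) and 1.71-fold in stimulated cells (-0.77 ± 0.11, adjusted p = 5.84e-06).

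TPP1, a tripeptidyl peptidase, measured 187.7, 183.2 and 198.8 CPM in Late CTL and 276.3, 270.9 and 283.6 CPM in Early CTL libraries. In stimulated cells its levels were 162.6, 160.6 and 164.5 CPM late and 297.3, 270.4 and 259.2 CPM early. Replicates lay close together, and the log2 fold change was -0.54 ± 0.11 in unstimulated (adjusted p = 0.000283) and -0.76 ± 0.11 in stimulated libraries (adjusted p = 6.32e-06). PSAP, prosaposin, the precursor of the saposins that present sphingolipids to their hydrolases, measured 5409, 5367 and 4954 CPM in Late CTL and 7283, 7214 and 7333 CPM in Early CTL libraries, and 4621, 5117 and 5106 CPM in Late ACT and 8014, 6970 and 6824 CPM in Early ACT libraries. The PSAP fall of 1.38-fold in unstimulated and 1.46-fold in stimulated cells was smaller than that of GRN, but it too left no overlap (-0.55 ± 0.10 in stimulated cells, adjusted p = 0.000164).

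GAA, which breaks down glycogen, measured 12.8, 7.79 and 5.89 CPM in Late CTL and 19.8, 17.5 and 16.6 CPM in Early CTL libraries, and 4.55, 7.4 and 8.73 CPM in Late ACT and 18.6, 14.6 and 18.4 CPM in Early ACT libraries. It fell 2.10-fold in unstimulated and 2.45-fold in stimulated cells, and late and early libraries did not overlap. GLB1, beta-galactosidase, fell by 0.79 ± 0.16 on the log2 scale in unstimulated cells (adjusted p = 0.000296) and 1.68-fold in stimulated cells, and HEXA, a subunit of beta-hexosaminidase, fell in both. GLA, alpha-galactosidase A, and GUSB, beta-glucuronidase, were called lower in stimulated cells alone. Those calls were lost in 8 and 7 of 18 alternatives, among them that without Early ACT 1 (adjusted p = 0.0705 and 0.0969). The cholesterol carrier NPC2, the acid ceramidase ASAH1 and the genes SMPD1 and ACP2 were called in neither condition. Over the 12 libraries SMPD1, acid sphingomyelinase, had 184 reads and ACP2, lysosomal acid phosphatase, 394.

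ACP5, the tartrate-resistant acid phosphatase, measured 14.3, 18.9 and 21.6 CPM in Late CTL and 20.6, 18.0 and 17.4 CPM in Early CTL libraries, which overlapped. In stimulated cells it measured 13.1, 15.5 and 11.1 CPM late and 10.4, 8.48 and 7.67 CPM early. The late level in stimulated cells was 1.53-fold higher (0.61 ± 0.21, adjusted p = 0.0207), and that call was lost in 4 alternatives, each of which left out 1 of the Late ACT or Early ACT libraries (Late ACT 1 or 2, Early ACT 2 or 3).

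**Figure D3:**
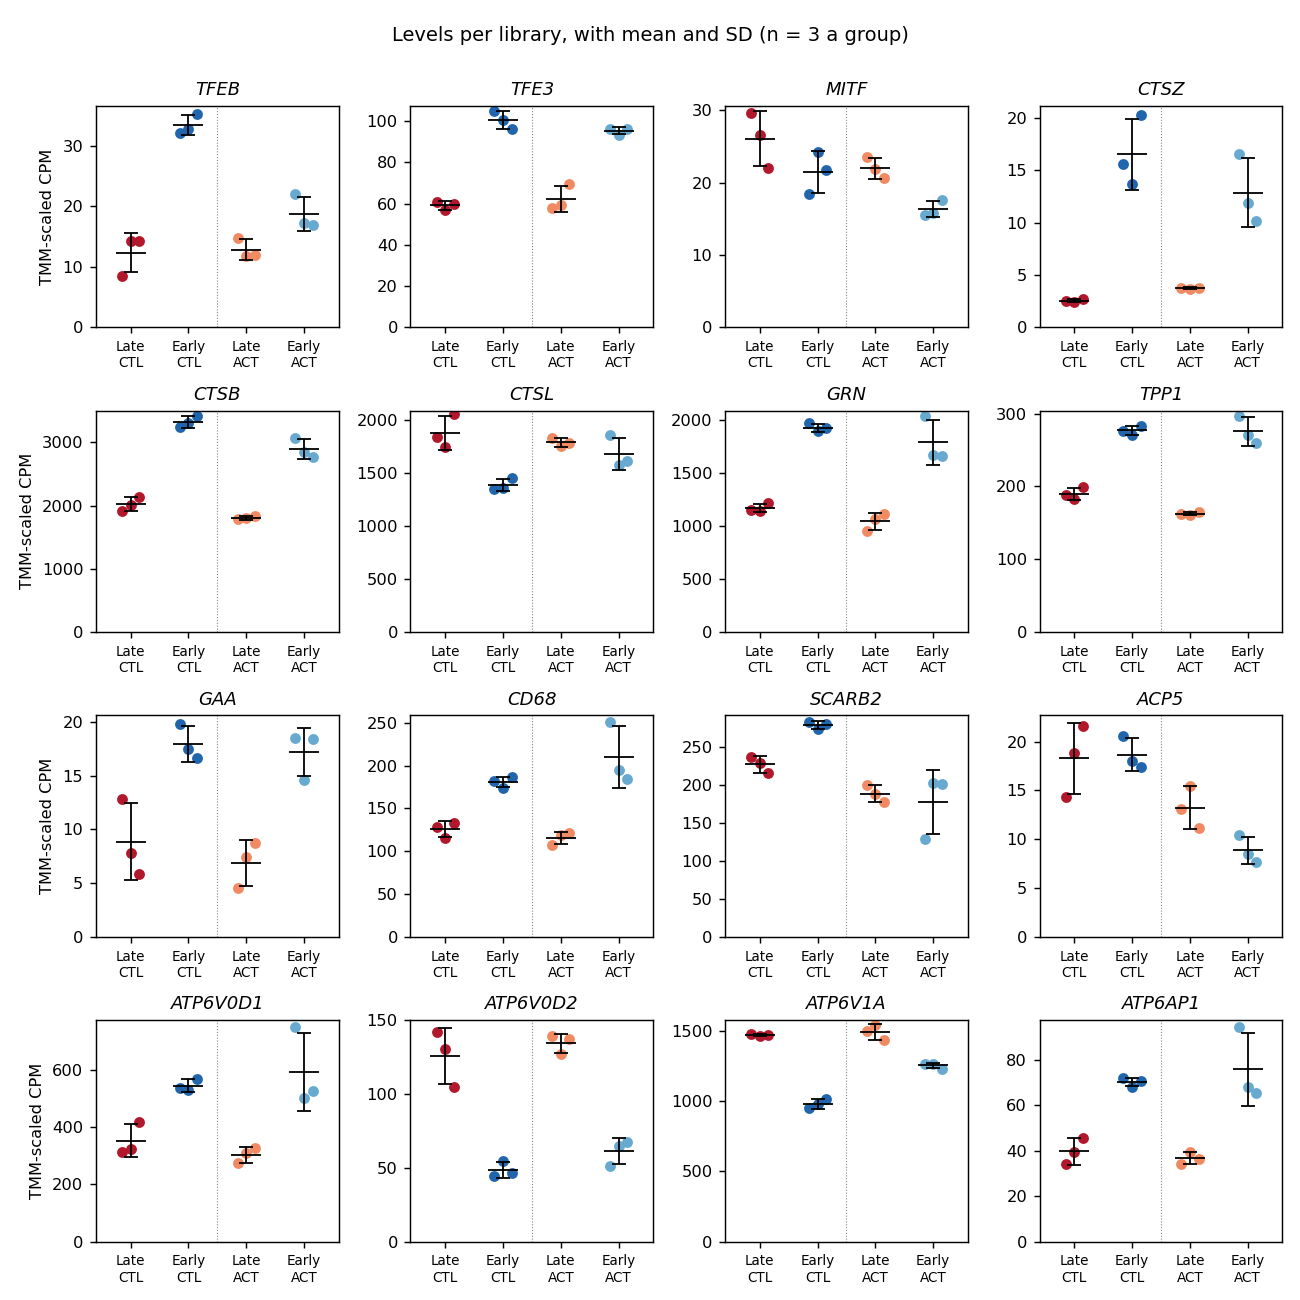
Level of 16 members in each library (points, TMM-scaled CPM, linear axes from 0), with the group mean and SD (bars, n = 3), for Late CTL, Early CTL, Late ACT and Early ACT from left to right. For TFE3, CTSB, GRN and TPP1 all 6 late libraries lie below all 6 early ones, for ATP6V0D2 and ATP6V1A they lie above, and SCARB2, ACP5 and TFEB are lower in Early ACT than in Early CTL.

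Of the 7 membrane proteins of the lysosome 1, CD68, fell in unstimulated cells and 3 fell in stimulated cells, and none rose. That is 14.3% and 42.9% lower, where 19.8% and 19.7% of all genes were. CD68, a heavily glycosylated protein of macrophage lysosomes, measured 128.7, 115.4 and 133.3 CPM in Late CTL and 182.2, 174.2 and 186.2 CPM in Early CTL libraries. It measured 107.6, 118.4 and 121.3 CPM in Late ACT and 251.3, 194.8 and 184.2 CPM in Early ACT libraries. Late and early libraries were apart in both conditions, with log2 fold changes of -0.52 ± 0.12 in unstimulated (adjusted p = 0.00161) and -0.85 ± 0.12 in stimulated libraries (adjusted p = 9.17e-06).

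The tetraspanin CD63 measured 514.9, 531.6 and 663.1 CPM in Late CTL and 555.9, 557.7 and 612.7 CPM in Early CTL libraries, which overlapped. In stimulated cells CD63 was at 538.0, 577.7 and 530.9 CPM late and 878.2, 594.8 and 620.0 CPM early. Its fall in stimulated cells (-0.34 ± 0.13, adjusted p = 0.0452) was lost in 10 of 18 alternatives. Among them was that without Early ACT 1 (-0.16, adjusted p = 0.126). NPC1, which moves cholesterol out of the lysosome, measured 373.4, 379.0 and 353.2 CPM in Late CTL and 372.2, 366.7 and 365.3 CPM in Early CTL libraries, and 335.3, 338.6 and 364.5 CPM in Late ACT and 480.8, 397.0 and 393.3 CPM in Early ACT libraries. It overlapped in unstimulated cells and was called lower in stimulated cells (-0.29 ± 0.11, adjusted p = 0.0403), a call lost in 6 alternatives.

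The calcium channel MCOLN1 measured 2.51, 5.94 and 6.8 CPM in Late CTL and 6.42, 4.18 and 4.94 CPM in Early CTL libraries. It measured 4.55, 5.59 and 3.66 CPM in Late ACT and 7.67, 7.63 and 6.9 CPM in Early ACT libraries, and it passed in neither condition (-0.68 ± 0.30 in stimulated cells, adjusted p = 0.0699). LAMP1 and LAMP2, the main glycoproteins of the lysosomal membrane, had log2 fold changes of -0.17 ± 0.11 and -0.19 ± 0.12 in unstimulated cells, with adjusted p = 0.2 and 0.22. Neither passed in stimulated cells. Both were called lower in unstimulated cells once Early ACT 1 was left out (adjusted p = 0.0243 and 0.031), and LAMP2 then also in stimulated cells (-0.35, adjusted p = 0.00137).

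Of the 15 V-ATPase members 4 fell and 3 rose in unstimulated cells, 26.7% and 20%, where 19.8% of all genes were lower and 20.9% higher. In stimulated cells 7 fell and 3 rose, 46.7% and 20%, where 19.7% of all genes were lower and 19.1% higher. Of genes with a mean of at least 10 CPM, 28.6% were lower and 18.1% higher in unstimulated cells, and 31% and 15.4% in stimulated cells. The share of V-ATPase members lower in unstimulated cells was thus below that of abundant genes. In the membrane sector 3 of 5 V0 members fell and 1 rose in unstimulated cells, and 4 fell and 1 rose in stimulated cells. ATP6V0B, ATP6V0D2 and ATP6V0E1 were named from the authors' tables of called genes alone, so they entered because they differed and the V0 counts are raised by that choice. Of 8 V1 members, none of which was named that way, 2 rose and none fell in unstimulated cells, and 2 rose and 2 fell in stimulated cells. The difference between the sectors was not tested.

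In the membrane sector, the rotor-stalk subunit d is made from alternative genes, the widely expressed ATP6V0D1 and ATP6V0D2, known from osteoclasts, kidney and macrophages. ATP6V0D1 measured 313.9, 323.1 and 418.8 CPM in Late CTL and 535.9, 527.3 and 568.5 CPM in Early CTL libraries, and 273.8, 307.9 and 327.8 CPM in Late ACT and 748.1, 500.6 and 525.0 CPM in Early ACT libraries. ATP6V0D2 measured 142.0, 130.9 and 105.0 CPM in Late CTL and 44.6, 54.8 and 46.9 CPM in Early CTL libraries, and 139.2, 127.1 and 137.3 CPM in Late ACT and 51.4, 65.0 and 67.7 CPM in Early ACT libraries. The genes thus moved apart, with no overlap of late and early libraries for either. ATP6V0D2 rose 2.58-fold in unstimulated (1.37 ± 0.14, adjusted p = 2.93e-08) and 2.18-fold in stimulated cells (1.12 ± 0.14, adjusted p = 7.04e-07). ATP6V0D1 fell 1.54-fold in unstimulated and 1.94-fold in stimulated cells (-0.96 ± 0.14, adjusted p = 9.82e-06).

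As a log2 ratio of counts within each library, ATP6V0D2 over ATP6V0D1 averaged -1.48 ± 0.45 in Late CTL and -3.48 ± 0.19 in Early CTL, and -1.17 ± 0.17 in Late ACT and -3.25 ± 0.53 in Early ACT (SD, n = 3 each). The late minus early difference of this ratio was 2.00 in unstimulated and 2.09 in stimulated cells. Subunit a has alternative genes as well, and they also diverged. ATP6V0A1 measured 80.4, 86.3 and 87.6 CPM in Late CTL and 133.2, 132.7 and 128.1 CPM in Early CTL libraries, and 73.3, 79.9 and 88.7 CPM in Late ACT and 108.1, 132.1 and 126.5 CPM in Early ACT libraries. It fell by 0.62 ± 0.12 on the log2 scale in unstimulated (adjusted p = 0.000202) and by 0.60 ± 0.12 in stimulated libraries (adjusted p = 0.000356). TCIRG1, the a3 subunit of osteoclasts and immune cells, is not on the list of 50 and fell by 0.73 ± 0.12 without stimulus (adjusted p = 2.31e-05) and 0.70 ± 0.12 with it (adjusted p = 4.33e-05). ATP6V0A2, the a2 subunit known from the Golgi and endosomes, rose by 0.90 ± 0.23 without stimulus (adjusted p = 0.00331) and 0.93 ± 0.24 with it (adjusted p = 0.00297).

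ATP6V0E1, a small V0 subunit, fell by 0.99 ± 0.21 in unstimulated cells (adjusted p = 0.000567). Its call in stimulated cells was lost in 7 of 18 alternatives, among them that without Early ACT 1 (adjusted p = 0.0832). ATP6V0B, a proteolipid of the rotor ring, was called lower in stimulated cells alone. ATP6AP1, an accessory protein needed for assembly of the pump, measured 34.2, 39.3 and 45.8 CPM in Late CTL and 71.9, 68.3 and 70.7 CPM in Early CTL libraries, and 34.4, 39.5 and 36.3 CPM in Late ACT and 94.5, 67.9 and 65.4 CPM in Early ACT libraries. It fell by 0.81 ± 0.15 in unstimulated (adjusted p = 0.000128) and 1.03 ± 0.15 in stimulated libraries (adjusted p = 7.87e-06). ATP6AP2, the prorenin receptor and the other accessory protein, was not called (0.20 ± 0.12 in unstimulated cells, adjusted p = 0.196).

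In the V1 sector the called rises were in the catalytic head. ATP6V1A, the subunit that hydrolyses ATP, measured 1479, 1464 and 1466 CPM in Late CTL and 947.4, 976.3 and 1014 CPM in Early CTL libraries. In stimulated cells it measured 1500, 1537 and 1431 CPM late and 1265, 1262 and 1229 CPM early. The groups did not overlap, and the rise was 1.5-fold in unstimulated (0.59 ± 0.10, adjusted p = 4.26e-05) and 1.19-fold in stimulated cells (0.25 ± 0.10, adjusted p = 0.0426), the stimulated call being lost in 13 of 18 alternatives. ATP6V1B2, its partner in the head, rose by 0.38 ± 0.11 in unstimulated (adjusted p = 0.00966) and 0.36 ± 0.12 in stimulated libraries (adjusted p = 0.0153). Its unstimulated call was lost in 2 of 18 alternatives, those without Early CTL 2 or Late CTL 3, and its stimulated call in 4. ATP6V1F and ATP6V1G1, of the central and outer stalks, were called lower in stimulated cells. The ATP6V1G1 libraries overlapped and its call (adjusted p = 0.0484) was lost in 12 of 18 alternatives, with DESeq2 among them (adjusted p = 0.0866). The edgeR call was kept without Early ACT 1 (-0.57, adjusted p = 0.000406). ATP6V1C1, ATP6V1D, ATP6V1E1 and ATP6V1H were called in neither condition.

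Other lysosomal genes gave a similar division. Of 78 further genes tested, from lists of the pathway, 33 fell and 8 rose in unstimulated cells and 35 fell and 11 rose in stimulated cells. That is 42.3% lower and 10.3% higher in unstimulated cells, where 19.8% and 20.9% of all genes were. In stimulated cells it is 44.9% lower and 14.1% higher, where 19.7% and 19.1% of all genes were. Further hydrolases and lumenal proteins fell in 15 of 23 members (65.2%) in unstimulated and 16 of 23 (69.6%) in stimulated cells. The 1 higher in each was LGMN, a protease that matures cathepsins. Its call in unstimulated cells was lost in 4 of 18 alternatives, with a highest adjusted p of 0.0895. GALNS, which degrades keratan sulfate, was at 37.3 ± 3.3 CPM in Late CTL and 82.3 ± 11.7 CPM in Early CTL (log2 fold change -1.13 ± 0.15, adjusted p = 1.38e-06).

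Of 21 further membrane and transport proteins 8 fell in each condition (38.1%), and 2 rose in unstimulated (9.52%) and 3 in stimulated cells (14.3%). Of all genes, 19.8% fell and 20.9% rose in unstimulated cells, and 19.7% and 19.1% in stimulated cells. SLC11A1, the metal ion transporter of macrophage phagosomes also called NRAMP1, measured 215.1, 209.2 and 205.3 CPM in Late CTL and 634.1, 641.8 and 631.1 CPM in Early CTL libraries. Its log2 fold change was -1.6 ± 0.12 in unstimulated (adjusted p = 1.34e-10) and -1.64 ± 0.12 in stimulated libraries (adjusted p = 1.16e-10). CLCN7, the lysosomal chloride and proton exchanger, fell by 0.98 ± 0.12 in unstimulated cells (adjusted p = 9.13e-07). LAMP3, a membrane protein of mature dendritic cells, rose in unstimulated cells, with 5.0 ± 1.57 CPM in Late CTL and 1.12 ± 0.40 CPM in Early CTL (2.16 ± 0.40, adjusted p = 0.000149).

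Genes for sorting of lysosomal enzymes fell in 5 and rose in 1 of 13 in unstimulated cells (38.5% and 7.69%). In stimulated cells 6 fell and 2 rose (46.2% and 15.4%). Of all genes, 19.8% fell and 20.9% rose in unstimulated cells, and 19.7% and 19.1% in stimulated cells. AP1M1 and AP1B1, subunits of the clathrin adaptor AP-1, fell in unstimulated cells by 1.5 ± 0.16 (adjusted p = 1.03e-07) and 1.07 ± 0.15 (adjusted p = 5.14e-06). IGF2R, the large mannose 6-phosphate receptor, rose by 0.57 ± 0.12 in unstimulated cells (adjusted p = 0.000573). The genes by which mTORC1 controls MiT factors had 4 lower and 3 higher of 18 in each condition. These shares, 22.2% and 16.7%, were near those of all genes. LAMTOR2 and LAMTOR3, partners in the Ragulator complex that anchors mTORC1 to the lysosome, went opposite ways at -1.25 ± 0.29 (adjusted p = 0.00109) and 0.86 ± 0.14 (adjusted p = 4.36e-05) in unstimulated cells.

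**Figure D4:**
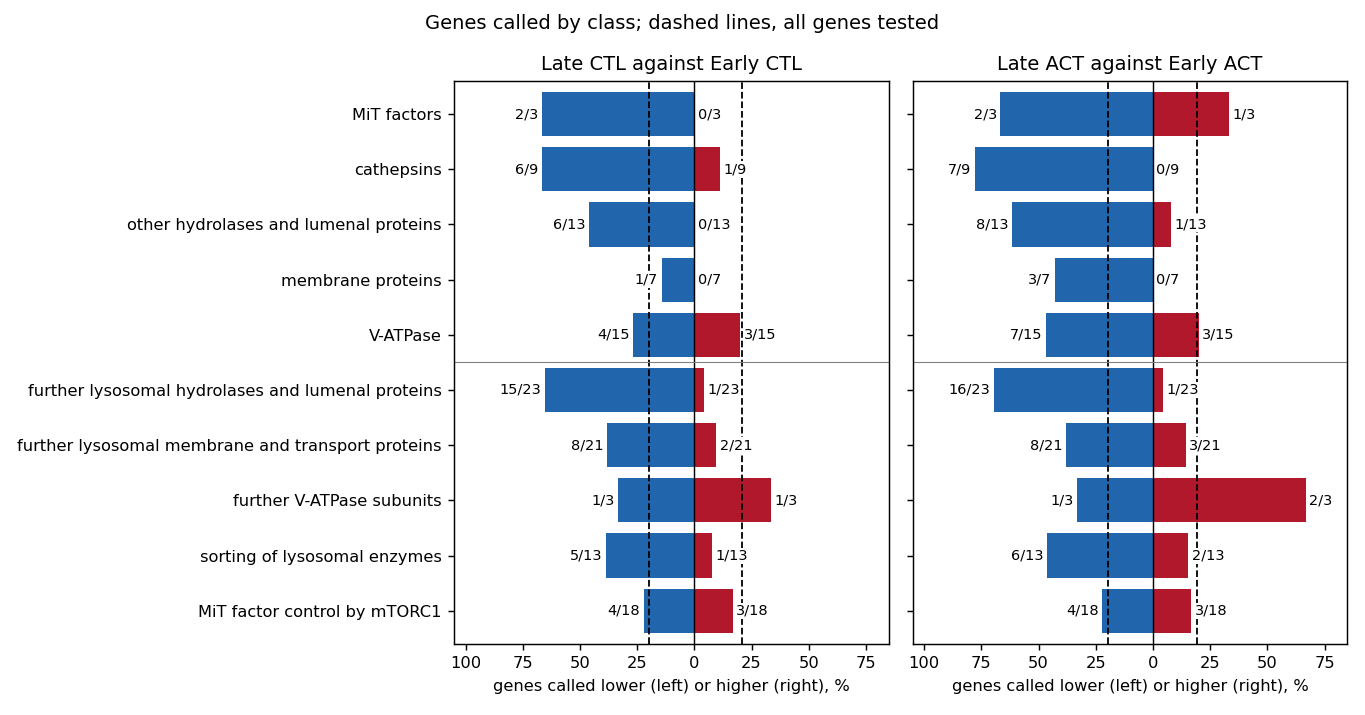
Share of genes called lower (blue, left) and higher (red, right) late, for the 5 member classes above the grey line and 5 further gene lists below it, with the number called over the number tested; dashed lines mark the share of all genes called (19.8% lower and 20.9% higher in unstimulated cells on the left, 19.7% and 19.1% in stimulated cells on the right). Cathepsins, with 6 and 7 of 9 lower, and further hydrolases, with 15 and 16 of 23 lower, lie far beyond the dashed line on the lower side, while the mTORC1 genes, with 4 of 18 lower, lie near it. CTSK and, in the V-ATPase class, ATP6V0B, ATP6V0D2 and ATP6V0E1 were named from the authors' tables of called genes alone. Genes with a mean of at least 10 CPM were called lower in 28.6% (unstimulated) and 31% (stimulated), beyond the dashed lines.

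Leaving out Early ACT 1 changed counts in unstimulated cells as well. The low-count filter, the scaling and the estimate of spread shared by all libraries were each redone without it, and their parts were not tested. Without that library 27 members were lower late and 7 higher in unstimulated cells, and 23 and 4 in stimulated cells. Of all 12565 genes then tested, 2877 were lower and 3271 higher in unstimulated cells, and 2347 and 2305 in stimulated cells. Early ACT 1 was the highest of its group for 32 of the 47 members and the lowest for 13. Other groups held such libraries too, Late CTL 3 being the highest for 31 and Early CTL 3 for 27. Upper-quartile scaling, which shifted the median of all genes to 0.15 in both conditions, left 17 lower and 8 higher members in unstimulated and 17 lower and 5 higher in stimulated cells. Of all 11826 genes, that scaling left 1794 lower and 3096 higher in unstimulated cells, and 1845 and 2882 in stimulated cells. No call reversed under any of the 18 alternatives.

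The authors' deposited tables of late over early, which list called genes alone, hold 21 lower and 5 higher members among 5229 genes for unstimulated cells, and 19 lower and 2 higher among 3985 genes for stimulated cells. The authors' deposited table gives a log2 fold change of -1.39 ± 0.22 for TFEB, -2.69 ± 0.35 for CTSZ and 1.38 ± 0.14 for ATP6V0D2 in unstimulated cells. It also lists ASAH1 (-0.22), SCARB2 (-0.28) and ATP6AP2 (0.21) in unstimulated cells, which the test used here did not call. The authors' deposited tables, on build Mmul_8.0.1, place TFEB (ENSMMUG00000004690) on chromosome 4 from 42647564 to 42701535, CTSZ (ENSMMUG00000015391) on chromosome 10 from 5395703 to 5406895 and ATP6V0D2 (ENSMMUG00000001618) on chromosome 8 from 84307421 to 84361497. In those tables GRN (ENSMMUG00000023751) lies on chromosome 16 from 50226681 to 50235430 and ATP6V1A (ENSMMUG00000020740) on chromosome 2 from 34806848 to 34836459. These are gene spans, and the counts were given per gene with no exon resolved.

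Stimulation with LPS and interferon-gamma changed few genes across the whole table, lysosomal or not. At 19 months none was called. With 0 of 11826 genes called in Late ACT against Late CTL (0%), the members had a median log2 fold change of -0.09. At an unadjusted p under 0.05 there were 527 genes in all and 2 members, ACP5 and TPP1. DESeq2 called 8 genes higher and 7 lower, none of them a member. TFEB had a log2 fold change of 0.02 ± 0.20, TFE3 of 0.08 ± 0.12 and MITF of -0.24 ± 0.17, each with adjusted p = 0.998.

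At 4.5 months 3 members fell and 1 rose with stimulation (6.38% and 2.13%), where 2.66% of all genes were called lower and 4.57% higher. TFEB fell 1.81-fold in Early ACT against Early CTL (-0.86 ± 0.18, adjusted p = 0.0028), so that its early stimulated level lay between the early unstimulated and both late levels. ACP5 fell 2.15-fold (-1.11 ± 0.20, adjusted p = 0.000627). SCARB2, a membrane protein of lysosomes also known as LIMP-2, measured 129.1, 202.9 and 201.5 CPM in Early ACT and 282.6, 273.4 and 280.6 CPM in Early CTL libraries, a fall of 0.64 ± 0.13 on the log2 scale (adjusted p = 0.00272). In late cells SCARB2 was at 199.4, 188.5 and 177.9 CPM in Late ACT and 236.5, 228.5 and 215.6 CPM in Late CTL libraries. ATP6V1A rose 1.28-fold early (0.35 ± 0.10, adjusted p = 0.0258), a call lost in 7 alternatives, whereas the calls of TFEB, ACP5 and SCARB2 held in all 18. TFE3 (-0.08 ± 0.12, adjusted p = 0.764) and MITF (-0.39 ± 0.17, adjusted p = 0.169) did not pass, and edgeR called no cathepsin. DESeq2 called CTSL higher (0.28, adjusted p = 0.0215) and CTSB lower (-0.20, adjusted p = 0.0461).

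Without Early ACT 1 the early response took in ATP6V0D2 (0.44, adjusted p = 0.00403) on the higher side and CTSB (-0.24, adjusted p = 0.0151) and ATP6V0E1 (-0.57, adjusted p = 0.0381) on the lower side, for 2 higher and 5 lower members. Of all 12565 genes then tested, 958 were higher and 596 lower. Of the 78 further lysosomal genes 2 rose and 2 fell early, 2.56% each, below the 4.57% of all genes higher and 2.66% lower. FNIP2, a partner of folliculin in the control of MiT factors, rose by 0.85 ± 0.11 (adjusted p = 1.12e-05), and SLC15A3, an endolysosomal transporter of peptides, by 0.61 ± 0.14 (adjusted p = 0.00519). The falls were those of AGA, which cleaves asparagine from glycoprotein sugars (-0.62 ± 0.19, adjusted p = 0.0384), and SLC17A5, the lysosomal sialic acid exporter (-0.49 ± 0.14, adjusted p = 0.0336). These calls were lost in 9 alternatives for AGA and 8 for SLC17A5.

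**Figure D5:**
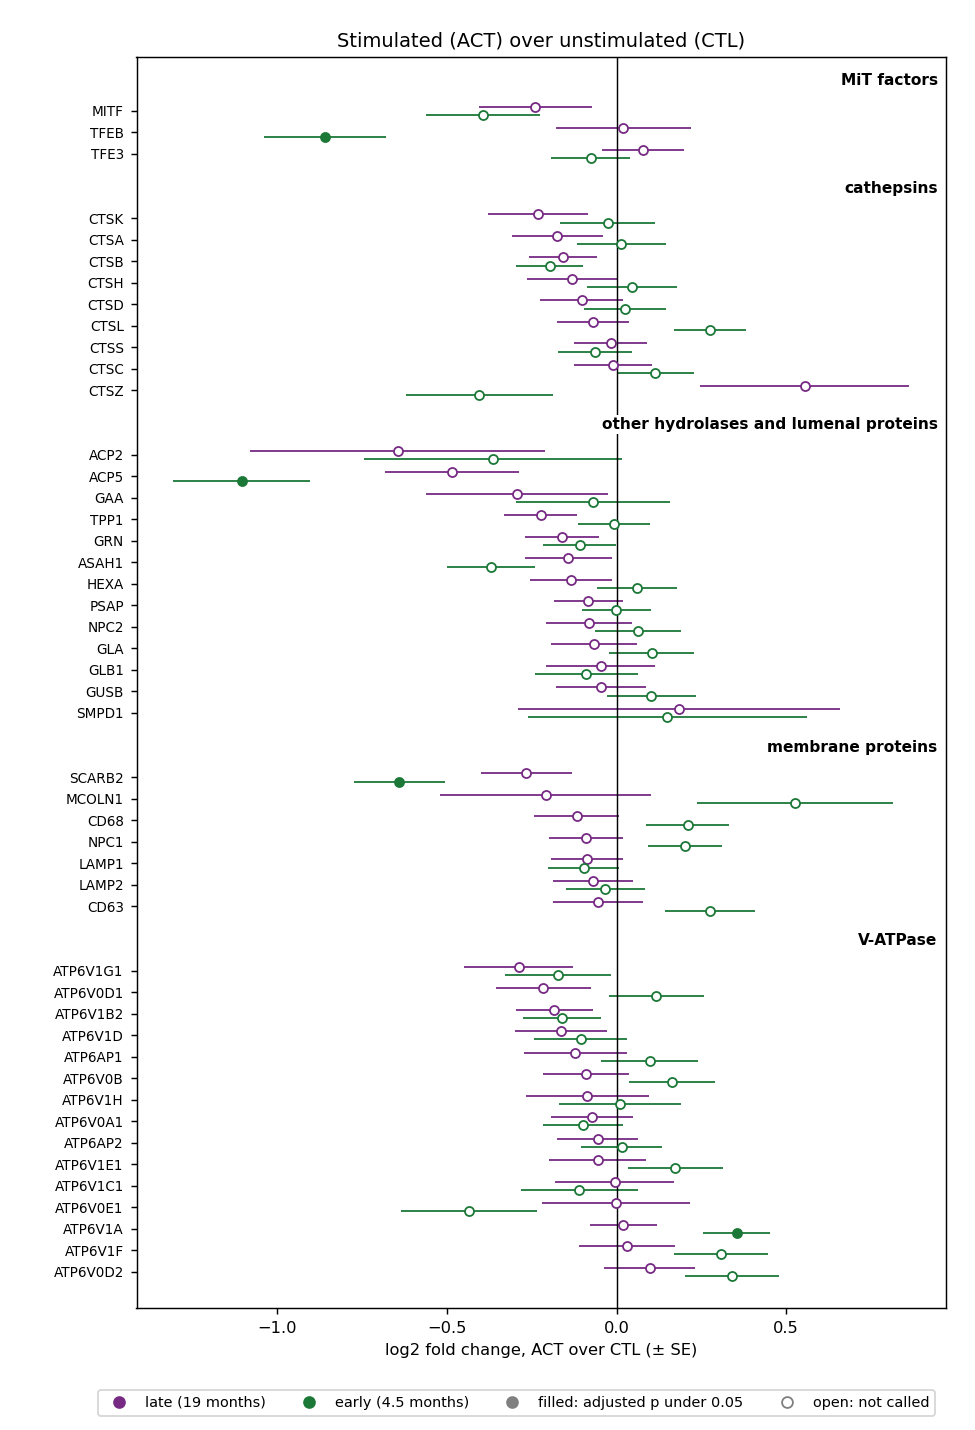
Log2 fold change of ACT over CTL libraries (± SE) for each member at 19 months (purple) and at 4.5 months (green), by class; filled points had an adjusted p under 0.05. No purple point is filled, and the filled green points are TFEB, ACP5 and SCARB2 to the left of 0 and ATP6V1A to the right.

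The difference between the responses at 19 and 4.5 months was tested directly as an interaction, which also tests whether the late to early difference depends on stimulation. No member was called, against 1.41% of all genes. At an unadjusted p under 0.05 there were 5 of the 47 members and 1280 of all 11826 genes, a similar share. TFEB had a difference of 0.88 ± 0.27 on the log2 scale (adjusted p = 0.121), which passed without Early ACT 1 (0.98, adjusted p = 0.0113). TFE3 (0.15 ± 0.17, adjusted p = 0.805) and MITF (0.15 ± 0.24, adjusted p = 0.876) did not approach the threshold. ATP6V1A (-0.33 ± 0.14, adjusted p = 0.344) passed without Early ACT 1 (adjusted p = 0.0311) and with DESeq2 (-0.35, adjusted p = 0.00295). The others under 0.05 before adjustment were CTSZ (0.96 ± 0.38, adjusted p = 0.296), ACP5 (0.62 ± 0.28, adjusted p = 0.414) and CTSL (-0.35 ± 0.15, adjusted p = 0.375).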

How the data were processed

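The 12 libraries (4 groups of 3) were prepared with the SMART-Seq v4 kit, whose cDNA carries no strand mark, and Nextera XT, per the labels. The count table deposited by the authors holds unscaled whole-number counts per gene, with no column left out here. Reads were handled with bcl2fastq and build Mmul_8.0.1, per the submitters' processing notes. How reads shared by overlapping or near-identical genes were treated is unknown, the aligner and counter being not given in the sources used here. The authors' deposited tables of late over early give a mean normalized signal, a log2 fold change with its SE, a test score and p-values with adjusted values, and list only genes with an adjusted p under 0.05.

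Names came from the count table and an Ensembl name table for 43 members. CTSK, ATP6V0B, ATP6V0D2 and ATP6V0E1 were named from the authors' tables alone. Since those tables list called genes alone, these names favour genes that differ.

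Genes were tested with edgeR 4.0.16 in R 4.3.3 (TMM, filterByExpr by group, robust quasi-likelihood F test, a coefficient per group over all libraries, Benjamini-Hochberg over 11826 genes). Each SE was obtained by dividing the absolute log2 fold change by the root of F. Printed levels are counts over library total times TMM factor (0.879 to 1.10). The biological coefficient of variation was 0.143. Scripts were tested on simulated data. Replicates all differed beyond sampling noise, so none was merged.

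The members, lists and tests were chosen with earlier results of these data known. Each comparison names up to 3 called members per class and direction with the smallest p, and every MiT factor, with full statistics. Values per library are given for the 5 members per class with the smallest p, and for CTSL, added after its values were seen. Sequences of promoters and proteins were not used here, so a planned motif description was not run. Alternatives were RLE and upper-quartile scaling, no low-count filter, DESeq2 1.42.0, the compared groups alone, a replicate block and each library left out.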

Additional observations from a re-analysis of the deposited data

Results flagged for a closer look

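The stimulation response of FNIP2, a partner of folliculin in the control of MiT factors by mTORC1, differed between 19 and 4.5 months by -0.80 ± 0.16 on the log2 scale (SE, adjusted p = 0.00556, edgeR interaction test). FNIP2 measured 985.5, 1028 and 1044 CPM in Late ACT and 1050, 1029 and 875.7 CPM in Late CTL libraries, and 1216, 985.8 and 977.2 CPM in Early ACT and 609.0, 581.3 and 571.5 CPM in Early CTL libraries. Early unstimulated libraries were thus the low group. The call held in all 17 alternatives, with a highest adjusted p of 0.0294. FNIP2 was the 1 gene called in the interaction among the 47 members and 78 further lysosomal genes.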

How the results depend on the processing

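Of the members' calls late against early, 20 of 23 in unstimulated and 18 of 32 in stimulated cells held in all 18 alternatives, as did 3 of 4 on early stimulation, and none reversed. Members called higher late in unstimulated cells (4) numbered 8 with upper-quartile scaling and 7 with the compared groups alone. All genes called higher numbered 3096 of 11826 and 2309 of 10655 in the same order, against 2471 of 11826 in the test used. In stimulated cells those called higher (5) numbered 2 without the low-count filter, 3 with the compared groups alone and 3 with the replicate block, and those called lower (27) numbered 17 with upper-quartile scaling. All genes called higher numbered 3306 of 26369, 1628 of 11006 and 2147 of 11826 in the same order, against 2263 of 11826. Those called lower numbered 1845 with upper-quartile scaling, against 2326. On early stimulation those called higher (1) numbered 0 without the filter or with the compared groups alone and 2 with DESeq2, and those called lower (3) numbered 5 with DESeq2. All genes called higher numbered 530 of 26369, 334 of 10721 and 654 of 8987 in the same order, and 378 were lower with DESeq2. In the interaction DESeq2 called 1 lower, against 270 of 7453 genes in all. The causes were not tested. Leaving out 1 library gave 3 to 7 higher and 18 to 27 lower in unstimulated cells, 1 to 5 higher and 20 to 28 lower in stimulated cells, 0 to 2 higher and 3 to 5 lower on early stimulation, 0 on late stimulation, and 0 to 1 in each direction of the interaction. The upper ends for unstimulated cells came without Early ACT 1. Same-numbered libraries did not deviate together (correlations of -0.09 to 0.10 over 18 pairs), so the replicate block, with 4 higher and 19 lower members in unstimulated cells, rests on shared numbers alone. Counting only members named outside the authors' tables gave 3 higher and 17 lower of 43 in unstimulated cells, and 4 higher and 24 lower in stimulated cells. The promoter motif description was not run. Depth limits SMPD1, ACP2, MCOLN1 and CTSZ, with 184 to 956 reads over all libraries.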
